A study of Mus musculus with 2 samples.

Results

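The genes described here are 10 genes of lipid droplets and triglyceride handling in mouse liver, chosen by symbol among the 24054 genes of the deposited expression table. They comprise the droplet coat proteins Plin2, Plin4 and Plin5, the CIDE genes Cidea, Cideb and Cidec, the lipase Pnpla2 with its inhibitor G0s2, and the acyltransferases Dgat2 and Mogat1. Their transcript levels were compared between Pgrmc1 KO and WT livers of male C57BL/6 mice aged 8–12 weeks. PGRMC1 is a heme-binding membrane protein of the endoplasmic reticulum that associates with cytochromes P450. In KO mice, exons 1 and 2 of the X-linked gene were removed in the whole body with Sox2-Cre, which acts in the early embryo, so the loss is neither confined to hepatocytes nor to adult life. Whether the WT mice carried Cre, and when or in which feeding state these livers were taken, is not given in the sources used here. Each group was 1 RNA-seq library made from equal amounts of total RNA of 5 mice. With 1 pooled library per genotype there is no spread between animals and no p-value, and the intervals below cover counting error only.

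A lipid droplet is a core of triglyceride and sterol ester under a single layer of phospholipid, and the proteins on that layer decide how easily the core is reached. Perilipins coat and shield the droplet, CIDE proteins move lipid between droplets that touch and, in hepatocytes, into lipoprotein particles, and the lipase encoded by Pnpla2 (ATGL) takes the first fatty acid off a stored triglyceride unless G0S2 holds it inactive. Triglyceride is made by adding a last acyl chain to diacylglycerol, the reaction of DGAT2. Liver stores little triglyceride when lean, and PPAR alpha, the fatty acid sensor of hepatocytes, is a known activator of several of these genes.

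The labels held for the targeted gene, whose transcript stood at 0.68 TPM (a transcript's share of all transcripts, corrected for length) in KO against 949.49 TPM in WT. The depth was 22086688 estimated reads in KO and 29710410 in WT. All 7 hepatocyte markers were abundant in both libraries, with summed levels of 76040 and 79586 TPM in KO and WT. A change is given as log2((KO TPM + 1)/(WT TPM + 1)), which makes the differences of genes near 1 TPM look smaller than they are. A gene counts as past the threshold at 1.4-fold or more in either direction.

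The 3 perilipin promoters are shown because Plin4 and Plin5 had the lowest changes among the 10 genes, with Plin2 as the most abundant coat gene beside them, and because Plin4 and Plin5 are next to each other on chromosome 17. Each is a RefSeq window of 300 bases on GRCm38, the assembly that mm10, the build given for the files, is based on. It runs from 250 bases before a RefSeq start site to 50 after it. All 3 genes lie on the minus strand, and each window is read 5′ to 3′ on it. The annotated 5′ ends of the genes, at 86670217 (Plin2), 56109948 (Plin4) and 56117606 (Plin5), lie upstream of these start sites but inside the windows. No windows placed on those ends were searched. Capitals mark AGGTCA, a single arm of a nuclear receptor site, on either strand (TGACCT on the other), and CACGTG, the E-box.

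Plin2, chr4:86670010-86670309: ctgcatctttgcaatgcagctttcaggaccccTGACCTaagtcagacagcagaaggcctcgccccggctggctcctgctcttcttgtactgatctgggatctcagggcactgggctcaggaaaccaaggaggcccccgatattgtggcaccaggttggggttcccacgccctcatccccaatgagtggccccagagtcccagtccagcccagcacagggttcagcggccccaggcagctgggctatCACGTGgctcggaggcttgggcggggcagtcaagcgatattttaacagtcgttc

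Plin4, chr17:56109733-56110032: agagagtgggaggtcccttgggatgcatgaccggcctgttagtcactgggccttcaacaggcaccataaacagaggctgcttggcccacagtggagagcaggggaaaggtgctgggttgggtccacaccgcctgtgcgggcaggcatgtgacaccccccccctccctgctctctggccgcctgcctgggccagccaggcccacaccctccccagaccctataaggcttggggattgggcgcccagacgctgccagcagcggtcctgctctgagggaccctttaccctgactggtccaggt

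Plin5, chr17:56117499-56117798: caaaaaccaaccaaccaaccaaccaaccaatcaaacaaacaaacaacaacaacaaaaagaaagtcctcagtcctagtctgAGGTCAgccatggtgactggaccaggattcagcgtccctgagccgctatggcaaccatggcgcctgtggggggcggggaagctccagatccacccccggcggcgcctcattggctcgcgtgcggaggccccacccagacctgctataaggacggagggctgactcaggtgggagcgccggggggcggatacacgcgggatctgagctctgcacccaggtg

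The Plin2 window held AGGTCA at base 33 on the opposite strand and CACGTG at base 247. The Plin5 window held AGGTCA at base 81, and the window of a second RefSeq start site of Plin5, at chr17:56117249-56117548, held it at base 264. Neither motif was in the Plin4 window. The windows searched for the 10 genes were 10 RefSeq windows of 8 genes. Windows on chromosome 18, where Cidea lies, were left out of this set, so Cidea was not searched. No window of Dgat2 was in it either. AGGTCA occurred in 3 of these 10 windows and in 16.3% of the 32851 mouse promoters searched, and CACGTG in 1 of 10 and in 7.15%. The DR1 element bound by PPAR alpha with RXR, 2 copies of AGGTCA in tandem with 1 free base between them, was in 0 of 10 and in 0.0396% of all promoters. TTATGTAA (D-box) and TCACNCCAC (sterol response element) were also in 0 of 10, against 0.938% and 1.24% of all promoters. At shares this low 10 windows would hold few or none, so these absences say nothing about the genes. TATAAA was in 1 of 10, that of Cideb, and in 13.6% of all promoters. All motifs were searched on both strands, and a match of letters is not a bound site.

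In TPM, which is per transcript length, the levels of the 10 genes spanned a wide range with nearly the same order in both genotypes. Plin2 led in both libraries and Dgat2 came second, and together they made up 64.6% of the summed TPM of the 10 genes in KO and 64.9% in WT. Cideb followed at 131 TPM. Plin5 and G0s2 came next and exchanged places, with Plin5 at 69.23 and G0s2 at 67.1 TPM in WT and at 53.62 and 72.54 TPM in KO. Below them stood Pnpla2, Plin4 and Cidec. Mogat1 and Cidea were under 1 TPM in both libraries, so 8 of the 10 genes averaged 1 TPM or more. The plot of levels by genotype shows how small the steps between the genotypes were beside the steps between genes. Whether neighbours in this order would exchange places between mice could not be measured with pooled RNA.

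**Figure D1:**
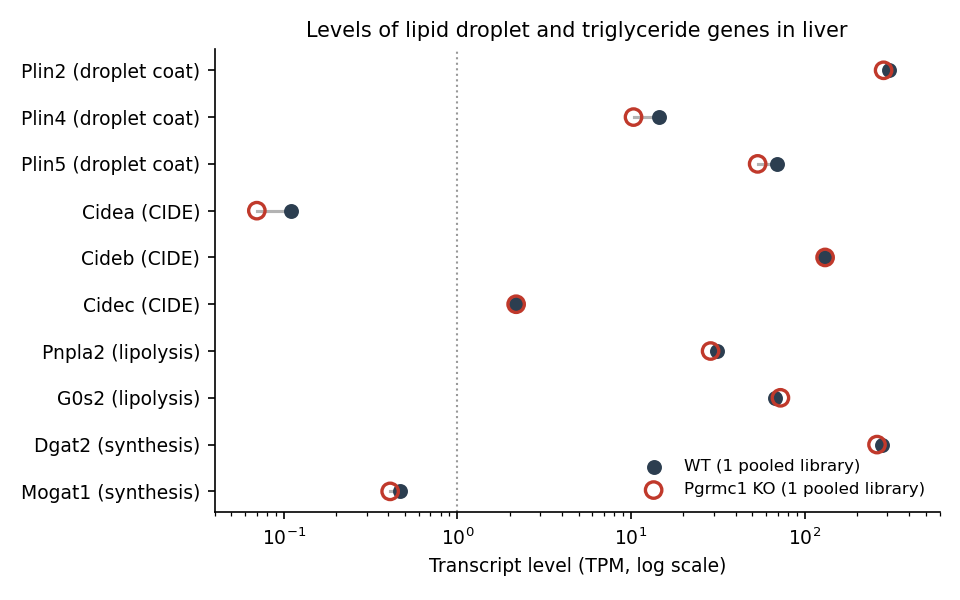
Transcript level of each gene in the WT library (filled circles) and the Pgrmc1 KO library (open circles), in TPM on a log axis, with each gene's role in brackets and a dotted line at 1 TPM. The levels run from 0.07 TPM for Cidea in KO to 306.18 TPM for Plin2 in WT, and G0s2 is the gene whose KO circle lies to the right of its WT circle.

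All 3 coat genes were lower in KO, Plin4 and Plin5 by more than Plin2. Plin2, the main coat protein of hepatocyte droplets, stood at 284.95 TPM in KO against 306.18 TPM in WT, a change of -0.10. From 6895 and 9903 estimated reads, the ratio of scaled reads had a log2 of -0.089, with an exact 95% counting interval from -0.13 to -0.044. The difference in TPM was -6.93%, and 24.8% of the 11623 genes averaging 1 TPM or more had a more negative change. Plin2 was thus lower beyond counting error at a size common among all genes.

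Plin4, which coats young droplets and is known mainly from fat and muscle, stood at 10.34 TPM in KO against 14.42 TPM in WT. Its change of -0.44 was the lowest of the 10 genes on the log2(TPM + 1) scale, with a percent difference of -28.3%, just short of the 1.4-fold threshold. The 814 and 1522 estimated reads gave a log2 ratio of -0.47 and a counting interval from -0.59 to -0.35, which holds the threshold itself. Of all these genes, 165 (1.42%) had a more negative change. Plin4 overlaps Hdgfrp2 in the annotation, and that gene was at 17.97 TPM in KO against 17.69 TPM in WT.

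Plin5, the perilipin of oxidative tissues that binds ATGL and holds droplets beside mitochondria, stood at 53.62 TPM in KO against 69.23 TPM in WT. Its change was -0.36, a percent difference of -22.5%, and 283 genes (2.43%) had a more negative one. The ratio of scaled reads, from 1356 and 2340 reads, had a log2 of -0.35 with a counting interval from -0.45 to -0.26. Relative to Plin2 in the same library, a measure that does not depend on how the libraries were scaled, Plin5 stood at 0.188 in KO and 0.226 in WT in TPM. The KO:WT ratio of those read ratios was 0.832 (exact counting interval 0.773 to 0.896). For Plin4 relative to Plin2 it was 0.768 (0.701 to 0.842), and for Plin4 relative to Plin5 it was 0.923 (0.827 to 1.03). Plin4 and Plin5 were therefore lower relative to Plin2 beyond counting error, while a difference between Plin4 and Plin5 was not detectable at this depth. All pairs in which 1 gene is divided by another were chosen after the values had been seen.

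The remaining perilipins were read beside them. Plin3, a coat protein that also exists free in the cytosol, stood at 27.43 TPM in KO against 31.36 TPM in WT, a change of -0.19. Plin1, the coat protein of fat cells, was at 0.08 and 0.06 TPM. Of the summed perilipin TPM, 376.42 in KO and 421.25 in WT, Plin2 made up 75.7% in KO and 72.7% in WT. The share of Plin5 was 14.2% and 16.4%, that of Plin3 7.29% and 7.44%, and that of Plin4 2.75% and 3.42%. The 4 perilipins averaging 1 TPM or more were all lower in KO, and the share of Plin2 was higher there while those of the other three were lower.

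Plin4 (chr17:56100587-56109948) and Plin5 (chr17:56111597-56117606) lie 1649 bases apart on GRCm38. The next gene past Plin5, Lrg1, which encodes a secreted glycoprotein of the acute phase and lies 2072 bases away, went the other way, with 264.55 TPM in KO against 210.52 TPM in WT. Its change was 0.33, with a log2 ratio of scaled reads of 0.35 (counting interval 0.29 to 0.41). The nearest gene averaging 1 TPM or more was taken on each side of each of the 10 genes, however far away, and overlapping genes under that level were left out. Among these 18 different genes, 0 were past 1.4-fold, 8 were lower and 10 higher. Their changes ran from -0.31 for Serpinh1, 162662 bases from Dgat2, to 0.34 for Lamb3, 21165 bases from G0s2. Of all genes averaging 1 TPM or more, 53.8% were lower and 45.8% higher. Past 1.4-fold were 1.21% up and 1.02% down, and at such shares 18 genes would hold few or none.

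The CIDE genes showed no difference detectable at this depth. Cideb, the hepatocyte member that works in droplet growth and in loading very low density lipoprotein (VLDL) with lipid, stood at 131.18 TPM in KO against 131.25 TPM in WT. From 1852 and 2470 reads its log2 ratio was 0.018, with a counting interval from -0.069 to 0.11. Cideb shares its position (chr14:55754052-55758424) with Nop9, at 6.65 and 6.27 TPM in KO and WT, and with Ltb4r2, at 0.83 and 0.88 TPM. The library kit marked strand and RSEM was run with its strand option, whose value is not given in the sources used here, and both overlapping genes were far below Cideb.

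Cidec (FSP27), which fuses droplets in fat cells and is known to be induced in fatty liver, was low and alike, at 2.18 TPM in KO against 2.19 TPM in WT. Its 46 and 62 reads gave a log2 ratio of 0.003 with a counting interval from -0.58 to 0.58, so a 1.4-fold difference would have been within the interval. Cidea, the CIDE gene of brown fat, which is also induced in fatty liver, was at 0.07 TPM in KO against 0.11 TPM in WT. It rested on 0 reads in KO and 1 in WT, and a count of 0 allows up to 3 reads, so no fold is given. Cideb made up 98.3% of the summed CIDE TPM in both libraries. The ratio of Cidec to Cideb in TPM was 0.0166 in KO and 0.0167 in WT.

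The lipase was slightly lower and its inhibitor slightly higher in KO, each within counting error. Pnpla2, the gene of ATGL, stood at 28.73 TPM in KO against 31.23 TPM in WT, a change of -0.12. Its 996 and 1450 reads gave a log2 ratio of -0.11 with a counting interval from -0.23 to 0.0092, and 21.6% of genes had a more negative change. G0s2 stood at 72.54 TPM in KO against 67.1 TPM in WT, and was the only one of the 10 genes with a higher TPM in KO. By scaled reads, the log2 ratios of Cideb (0.018) and Cidec (0.003) were also above 0, with intervals that held 0. The change of G0s2 was 0.11, with a log2 ratio of 0.14 (counting interval -0.011 to 0.28) from 686 and 843 reads. Of all genes, 18.8% had a more positive change.

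Taken as a ratio within each library, the inhibitor stood at 2.52 times its lipase in KO and 2.15 times in WT in TPM. The KO:WT ratio of those read ratios was 1.18, with a counting interval from 1.04 to 1.35, which leaves out 1, although each gene alone had an interval that held 0 on the log2 scale. Abhd5 (CGI-58), the coactivator of ATGL, stood at 20.31 TPM in KO against 19.77 TPM in WT, and relative to Pnpla2 the ratio of ratios was 1.12 (0.988 to 1.26). For Plin5, which binds both ATGL and CGI-58, relative to Pnpla2 it was 0.844 (0.759 to 0.938). These 3 pairs were chosen after the values had been seen, which favours intervals that leave out 1. Their ratios share the reads of Pnpla2 and are not independent of each other.

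Of the genes of the last acylation steps, Dgat2 was slightly lower in KO beyond counting error, and Mogat1 had too few reads to tell. Dgat2, the main enzyme that joins newly made fatty acid to diacylglycerol in liver, stood at 261.11 TPM in KO against 279.13 TPM in WT, a change of -0.096. The log2 ratio of scaled reads was -0.082, with a counting interval from -0.12 to -0.040, and 26.4% of genes had a more negative change. Dgat1, the other enzyme of this reaction, stood at 15.18 and 15.15 TPM in KO and WT. Dgat2 stood at 17.2 times Dgat1 in KO and 18.4 times in WT, and the ratio of those read ratios was 0.933 (0.806 to 1.08). Dgat2 and Plin2, the most abundant pair, stood at nearly the same ratio in both libraries, 0.916 in KO and 0.912 in WT.

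Mogat1, a monoacylglycerol acyltransferase that is low in lean liver and known to rise in fatty liver, was at 0.41 TPM in KO against 0.47 TPM in WT. It rested on 5 and 8 reads, and the counting interval of its log2 ratio ran from -2.20 to 1.55. Mogat2, its intestinal relative, was at 0.18 and 0.07 TPM.

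**Figure D2:**
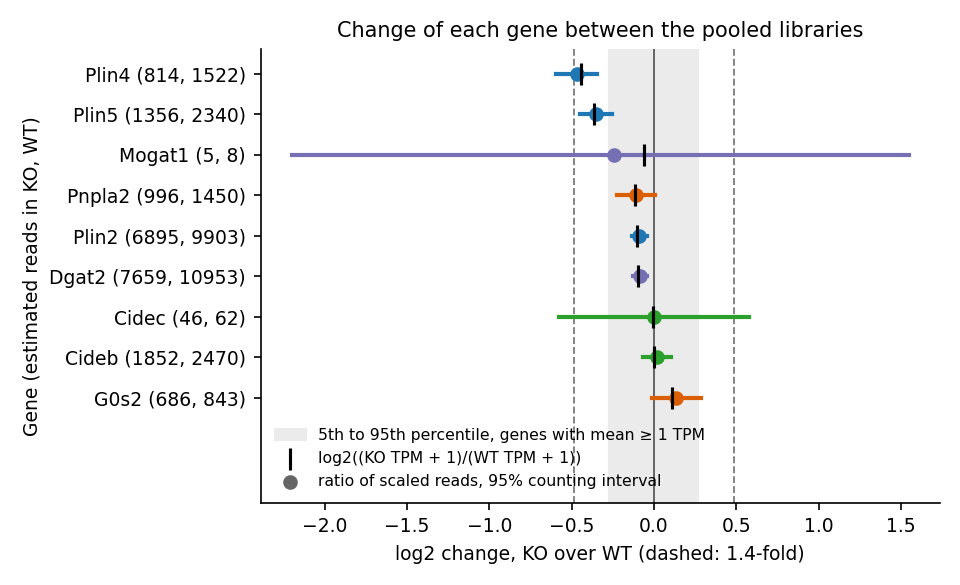
Log2 change, KO over WT, of the 9 genes with reads in both libraries, with estimated reads in KO and WT in brackets. Circles and bars are the ratio of scaled reads with its exact 95% counting interval, black ticks are log2((KO TPM + 1)/(WT TPM + 1)), the grey band is the 5th to 95th percentile of all genes averaging 1 TPM or more, and dashed lines mark 1.4-fold. The band runs from -0.27 to 0.27 and is on the scale of the ticks. The circles and ticks of Plin4 and Plin5 lie left of it, the bar of Plin5 reaches into it, and the interval of Mogat1 is wider than the band.

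Counted together, 0 of the 10 genes were past 1.4-fold up and 0 of 10 past 1.4-fold down. Cidea and Mogat1, under 1 TPM, could hardly pass the threshold with a pseudocount of 1 TPM, and the background leaves out such genes. The 8 genes that meet its minimum gave the same counts of 0. The background was 1.21% of genes up and 1.02% down, that is 141 and 118 of 11623 genes averaging 1 TPM or more, and at such shares 10 genes would hold few or none past the threshold. In TPM, 9 of 10 genes were lower in KO, and 7 of the 8 genes averaging 1 TPM or more. Both counts include Cideb and Cidec, which differed by -0.07 and -0.01 TPM and had ratios of scaled reads above 1. The count of 9 also includes Cidea, with 0 reads in KO and 1 in WT. Over all genes 53.8% were below 0 and 45.8% above. The median change was -0.078 over the 10 genes and -0.10 over the 8, and -0.013 over all genes. Of the 9 genes with an interval, 4 had one below 0 (Plin2, Plin4, Plin5 and Dgat2), 0 had one above 0 and 5 had one that held 0. These 4 genes were also those whose estimated reads were not whole in both libraries, since RSEM can divide a read between genes. The intervals do not cover the error of that division. They also narrow as reads increase, so small ratios of abundant genes leave out 0, as for Apob at a log2 ratio of 0.029 (0.023 to 0.034). The share of all genes with an interval that leaves out 0 was not computed, so the 4 have no background. The summed TPM of the 10 genes was 845.13 in KO and 901.31 in WT, a ratio of 0.938. Genes of 1 pathway are not replicates, and these counts carry no test.

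**Figure D3:**
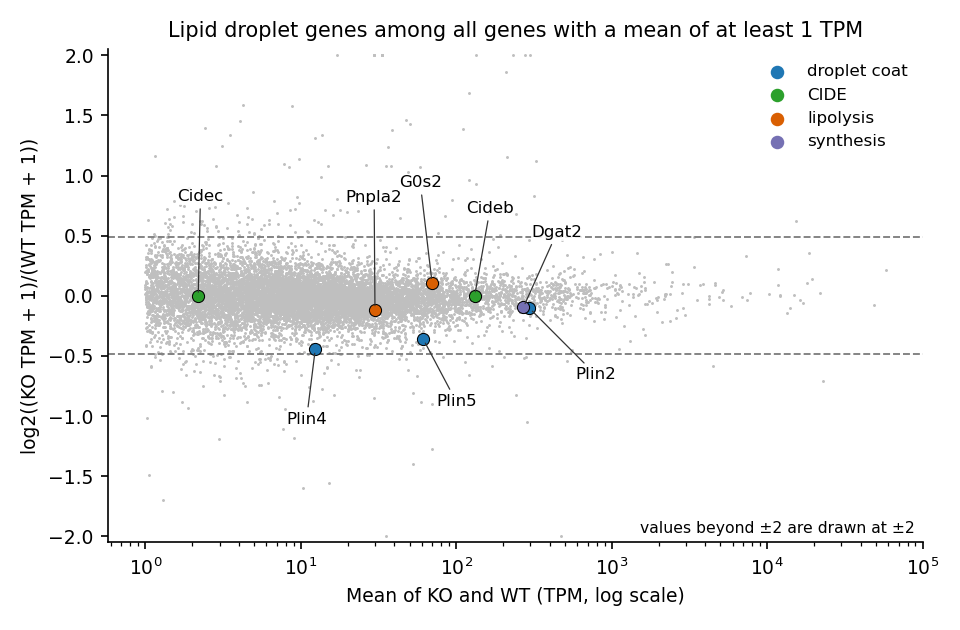
Log2 change of each gene averaging 1 TPM or more (vertical axis) against its mean level in TPM on a log axis, with the 8 lipid droplet and triglyceride genes of that level coloured by role and dashed lines at 1.4-fold. The 8 genes lie between -0.44 and 0.11, inside the dashed lines, and Plin4 at -0.44 and Plin5 at -0.36 lie below the densest part of the cloud.

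The wider pathway was read from 6 lists of 84 different genes, of which 81 averaged 1 TPM or more. Of these 81, 0 were past 1.4-fold up, against 1.21% of all genes, and 3 (3.70%) past it down, against 1.02%, namely Lpin1, Cd36 and Fabp4. In all, 36 were above 0 and 45 (55.6%) below, close to the 53.8% of all genes below 0, with a median of -0.028 against -0.013. The counts of each list below stand against the same shares of all genes, and with 9 to 18 genes a list they carry no test.

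Among 18 genes of droplet coat and biogenesis, 0 were past the threshold in either direction and the median was -0.042. Hsd17b13, an abundant droplet enzyme of hepatocytes, stood at 301.57 TPM in KO against 363.72 TPM in WT, a change of -0.27 with a log2 ratio of -0.25 (counting interval -0.30 to -0.20). The lowest gene of the list was Hilpda, a small inhibitor of ATGL, at 2.35 and 3.13 TPM with a change of -0.30 from 24 and 45 reads. The highest was Tmem159, a partner of seipin in droplet formation, at 1.89 and 1.33 TPM with a change of 0.31 from 32 and 30 reads. The counting intervals of Hilpda and Tmem159 held 0.

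Of 11 genes of triglyceride hydrolysis and its control, 7 were above 0, 4 below and 0 past the threshold, with a median of 0.066, the only one of the 6 medians above 0. Its highest gene, Ces1d, a carboxylesterase that hydrolyses stored triglyceride in liver, stood at 518.1 TPM in KO against 472.91 TPM in WT, a change of 0.13. Pnpla3, a droplet protein related to ATGL, was at 0.65 and 1.01 TPM, under the minimum mean. Its 40 and 85 reads gave a log2 ratio of -0.65 with a counting interval from -1.23 to -0.095.

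Among 15 genes of triglyceride synthesis, 1 was past the threshold down. Lpin1, a phosphatidate phosphatase that makes the diacylglycerol used by DGAT2, stood at 173.38 TPM in KO against 307.53 TPM in WT, a change of -0.82. The other lipins were lower too, with Lpin2 at 159.32 and 219.3 TPM (change -0.46) and Lpin3 at 2.86 and 3.64 TPM (change -0.27). Gpam, the mitochondrial acyltransferase of the first step, stood at 102.84 and 130.89 TPM (change -0.34). The highest gene of the list was Agpat1, an enzyme of the second step, at 4.41 and 3.61 TPM (change 0.23). The list went both ways, with 7 genes above 0, 8 below and a median of -0.028. The counting interval of the log2 ratio of scaled reads ran from -0.85 to -0.79 for Lpin1, from -0.48 to -0.42 for Lpin2 and from -0.67 to -0.023 for Lpin3. Only the last of them held the log2 ratio of Dgat2, -0.082.

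Of 14 genes of fatty acid uptake and activation, 2 were past the threshold down. Cd36, a fatty acid transporter, stood at 10.74 TPM in KO against 17.28 TPM in WT, a change of -0.64 with a log2 ratio of -0.68 (counting interval -0.84 to -0.53). Fabp4, a fatty acid binding protein of fat cells, macrophages and capillary endothelium, stood at 18.88 and 29.47 TPM, a change of -0.62. Fabp5, a related binding protein, stood at 136.82 and 185.46 TPM, a change of -0.44. The list's highest gene was Acsl1, the main acyl-CoA synthetase of hepatocytes, at 524.76 and 454.69 TPM with a change of 0.21. The median was -0.026.

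Of 9 genes of VLDL lipidation and secretion, 0 were past the threshold, with changes from -0.16 for Surf4, an export receptor, to 0.069 for Tm6sf2, which works in lipoprotein lipidation, and a median of -0.058. Apob, the backbone of VLDL, stood at 2392.81 TPM in KO against 2361.55 TPM in WT. Of 15 transcription factors and their partners, 0 were past the threshold and the median was -0.019. Nr0b2 (SHP) was the lowest at 44.42 and 59.37 TPM, a change of -0.41, and Mlxipl (ChREBP) the highest at 72.2 and 62.77 TPM, a change of 0.20. Ppara stood at 95.78 and 99.15 TPM, and Srebf1, the SREBP-1 gene, at 59.07 and 60.33 TPM, each with a counting interval that held 0.

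**Figure D4:**
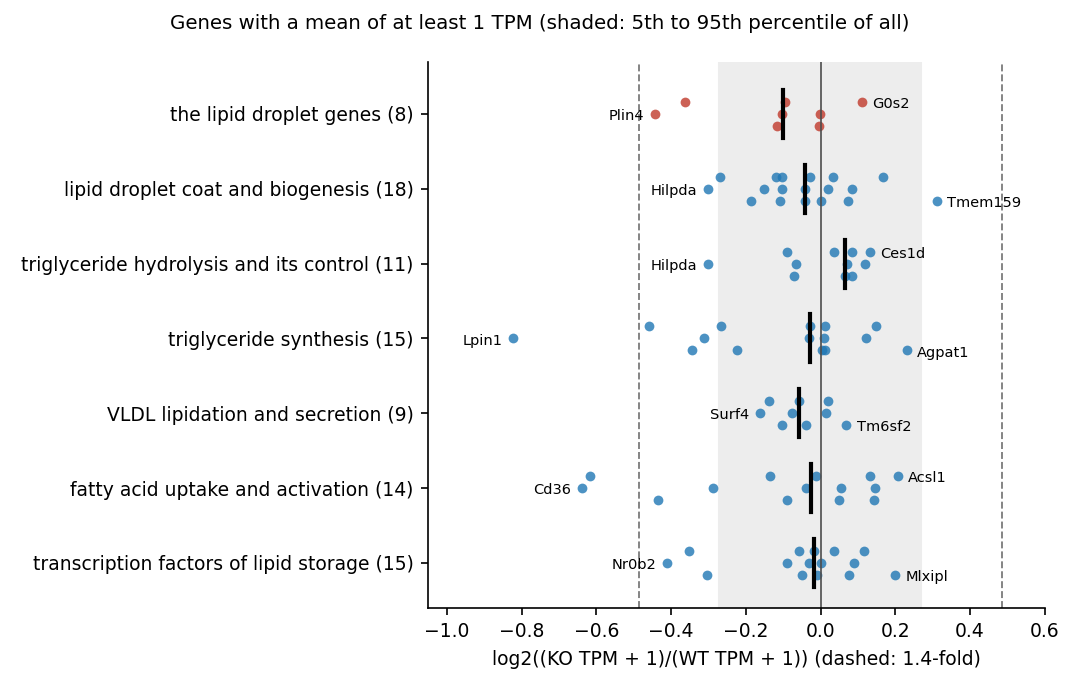
Log2 change, KO over WT, of the 8 lipid droplet and triglyceride genes (red) and of the genes of 6 pathway lists (blue), each averaging 1 TPM or more and with the number of genes in brackets. Black bars are medians, which run from -0.10 for the red genes to 0.066 for triglyceride hydrolysis, the shaded band is the 5th to 95th percentile of all genes, and dashed lines mark 1.4-fold, past which only Lpin1, Cd36 and Fabp4 (unlabelled, beside Cd36) lie.

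Several of these genes are also expressed in cells other than hepatocytes, and in RNA of whole liver fewer cells of a type and less RNA per cell cannot be told apart. Of 7 hepatocyte markers, 6 were below 0 and 1 above, with a median of -0.074. Of 7 adipocyte markers, 6 were under 1 TPM in both libraries, the defining markers Adipoq (0.07 and 0.10 TPM), Lep (0.02 and 0.02) and Plin1 among them. The seventh, Cfd, was past the threshold up at 5.46 TPM in KO against 1.55 TPM in WT, from 56 and 20 reads, and the summed adipocyte list was at 6.11 and 1.99 TPM.

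The endothelial markers were all lower in KO, 6 of 6, with a median of -0.12 and sums of 154.93 and 173.05 TPM. The lowest was Lyve1, at 11.47 and 17.94 TPM (change -0.60), the only one of the 6 past the threshold. The stellate cell list had 5 of 7 genes below 0, a median of -0.17 and sums of 195.57 and 217.74 TPM. The Kupffer cell list had 6 of 6 above 0, a median of 0.16 and sums of 190.87 and 169.62 TPM. The counting interval held 0 for Stab2, Clec4g, Kdr and Fcgr2b of the endothelial list, and for Vsig4, Marco and Timd4 of the Kupffer cell list. It also held 0 for Des, Pdgfrb and Colec10 of the stellate cell list. Over all genes 53.8% were below 0, 45.8% above and 1.02% past the threshold down, and lists this short carry no test. The part of such differences in the values of Plin4, Plin5, Cd36 and Fabp4 was not tested.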

How the data were processed

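Liver total RNA of male mice was pooled by genotype, 2.5 µg from each of 5, and sequenced as stranded paired reads (TruSeq Stranded Total RNA). Per the labels and the submitters' processing notes, CASAVA 1.8.2, Bowtie and RSEM 1.2.09 were run on mm10. The authors deposited posterior mean TPM per gene, with column sums of 1005325 (KO) and 994702 (WT). These differ, so the TPM carry a further scaling that is not given in the sources used here. A second deposited table, for 16318 genes, holds EBSeq's signal per library, which is estimated reads over a size factor. Columns of their own comparison (posterior probabilities and fold changes) were not used.

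The value of 1 read was taken as the most frequent signal, 1.16 in KO and 0.860 in WT, and gave the estimated reads. Within 0.02, 78.4% and 75.0% of values were whole reads. No test was run, because each genotype was 1 pooled library. Of the 10 genes, 6 had whole reads in both libraries, and the others, Plin2, Plin4, Plin5 and Dgat2, had part reads.

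Changes were log2 values with a pseudocount of 1 TPM. Genes averaging 1 TPM or more formed the background. Intervals are exact Clopper-Pearson intervals at 95% of read ratios (for pairs of genes, exact conditional intervals). They treat the estimated reads as counts and cover counting error only. The steps were tested on simulated data. Named beside the 10 genes were the lowest and highest gene of each list, each gene past 1.4-fold, nearest neighbours on the reference, markers and Pgrmc1. Plin3, Dgat1, Abhd5, Hsd17b13, Pnpla3, Lpin2, Lpin3, Gpam, Fabp5, Mogat2, Ltb4r2, Apob, Ppara and Srebf1 were named after their values were seen. The 10 genes and the lists were chosen with earlier results of these data known. Of the list genes, 5 were matched through an older symbol. Scripts ran on Python 3.11.15 with scipy 1.17.1, pandas 2.3.3, numpy 2.4.6 and, for plots, matplotlib 3.10.9. Alternatives were another pseudocount, scaling, filter and fold.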

Additional observations from a re-analysis of the deposited data

How the results depend on the processing

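No paired analysis was possible because KO and WT were 1 pooled library each, so none could be left out either. For the 9 genes with reads in both libraries, 36 of 36 alternative values stayed near the reported change. Each moved by less than the distance from the middle of the gene's counting interval to its ends. Plin4 lay between -0.48 and -0.43 and Plin5 between -0.37 and -0.35. For Cidec and Mogat1 that distance is so wide that their values could hardly have moved further. Cideb and Cidec, which lie at 0, changed sign with the scaling. The count of the 10 genes past 1.4-fold was 0 up under every alternative, and 0 down under every alternative but the authors' means, where it was 1 (Cidea, 0 against 1 read). Of the 36 alternative list medians, 1 changed sign (fatty acid uptake and activation, to 0.0016 with the authors' means). With those means 1 gene of droplet coat and biogenesis was past the threshold up (Tmem159). With a fold of 2 the lists held 0 genes down, both for triglyceride synthesis and for fatty acid uptake, and with a ratio of 0.6 for falls the uptake list held 0. Over all genes, the 141 up and 118 down became 280 and 223 with a pseudocount of 0.1 TPM, 296 and 237 with the authors' means, 62 and 43 with a minimum of 10 TPM, and 45 and 13 with a fold of 2, while 35 were down with 0.6. Genes up made up 54.4% of the 141 and 118 calls, and 77.6% with a fold of 2. With 0.6 for falls they made up 80.1%, but there falls faced a stricter cut than rises, which stayed at 1.4-fold. Depth limits Cidec, Cidea and Mogat1, whose reads are too few to show a 1.4-fold difference.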
